A study of Mus musculus with 12 samples.

Results

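Fibrinogen is the soluble precursor of the blood clot, and its chains are encoded by Fga (the Aα chain), Fgb (the Bβ chain) and Fgg (the γ chain). The 3 genes were taken by symbol from the 40213 gene symbols listed for each of 12 mouse kidney RNA-seq libraries, and all 3 had enough counts to be among the 17841 genes tested. They were chosen by their levels in these same libraries, so those levels and differences are given as a description, without a test.

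The libraries came from kidneys of C57BL/6 mice in 3 groups of 4. The first group received colchicine by intraperitoneal injection at a labelled 0.3 mg/kg per day together with adenine in the diet. The second, the chronic kidney disease (CKD) group, had saline by the same route and a diet labelled 2% adenine, and the control group had saline and a normal diet. Adenine in the diet causes crystal injury to kidney tubules, and colchicine is an alkaloid that binds tubulin. No genetic alteration is labelled in any group, and the labels give no age. The labels of the 4 colchicine libraries read 2, 3, 4 and 5% adenine for replicates 1 to 4, while the study's design text describes 1 adenine model, so the groups were kept as titled.

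Library totals were between 22200909 and 38253100 counts. Mitochondrially encoded genes held 14.6 to 21.8% of the counts in colchicine libraries, 16.7 to 17.3% in CKD libraries and 41.5 to 46.7% in control libraries, which bears on scaling against controls. The labelled tissue was checked against proximal tubule markers, whose 8 genes summed to 598 ± 161 CPM (scaled counts per 1000000) in colchicine libraries, 864 ± 120 CPM in CKD libraries and 33200 ± 1300 CPM in control libraries (SD, n = 4 each). Slc34a1, the phosphate transporter of that segment, was at 226 ± 73.4, 293 ± 38.8 and 4704 ± 142 CPM in colchicine, CKD and control libraries. The labels call the samples biological replicates without naming animals, so p-values measure only the spread between these samples.

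Each fibrinogen molecule holds paired copies of the 3 chains joined by disulfide bonds. Thrombin trims the Aα and Bβ chains so that the molecules polymerise into fibrin, factor XIII crosslinks the polymer, and plasmin dissolves it. Hepatocytes are the main source in the body, where interleukin-6 raises all 3 genes through STAT3 during the acute phase response, and injured kidney epithelium has also been described to express them.

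The 3 genes lie side by side. On mouse chromosome 3 the RefSeq order was Rbm46, Lrat, Fgg, Fga, Fgb, Plrg1 and Gm10710. The 250 bases before each annotated start are shown because the 3 genes varied together across libraries, as described below. Capitals mark CTGGGA, the core letters of the element described for interleukin-6 responses in rat fibrinogen promoters. The sequences are from RefSeq on GRCm38.p6, an older build than the GRCm39 named for the counts, each 5′ to 3′ on the strand of its gene.
Fga (chr3:83025903-83026152, plus strand): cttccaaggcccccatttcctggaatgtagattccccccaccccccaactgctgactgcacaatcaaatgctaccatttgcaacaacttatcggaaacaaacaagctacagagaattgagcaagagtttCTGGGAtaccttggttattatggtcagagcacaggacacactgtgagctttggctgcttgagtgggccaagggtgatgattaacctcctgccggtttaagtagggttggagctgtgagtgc
Fgb (chr3:83049864-83050113, minus strand): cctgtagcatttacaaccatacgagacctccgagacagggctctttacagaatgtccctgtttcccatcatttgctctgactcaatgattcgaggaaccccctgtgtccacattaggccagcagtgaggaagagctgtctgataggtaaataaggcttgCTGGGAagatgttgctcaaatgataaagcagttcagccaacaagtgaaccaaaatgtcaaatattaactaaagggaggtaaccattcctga
Fgg (chr3:83007474-83007723, plus strand): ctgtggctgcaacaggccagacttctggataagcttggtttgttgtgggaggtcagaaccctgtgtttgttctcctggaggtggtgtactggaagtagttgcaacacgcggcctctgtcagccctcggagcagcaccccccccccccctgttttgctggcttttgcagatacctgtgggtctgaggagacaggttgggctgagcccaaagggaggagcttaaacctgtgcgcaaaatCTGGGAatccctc

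CTGGGA, searched on both strands, was found once in each window, 121 bases before the start of Fga, 91 before that of Fgb and 13 before that of Fgg. It also lay in 27% of the 32851 mouse windows of the same length. The longer form CTGGGAA, which overlaps it, was in the Fgb and Fgg windows and in 9.1% of all windows. The palindrome TTCNNNGAA, a general form of STAT sites, was in the Fga and Fgb windows and in 7.02% of all windows. TTNNGNAA, a loose form of C/EBP sites, was in the same pair of windows and in 36.8% of all. Neither TTCNNNGAA nor TTNNGNAA was in the Fgg window. These are matches of letters only.

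All 3 chains were lowest in control kidneys, highest in CKD kidneys, and in between in CKD kidneys given colchicine. Fga was at 219, 203, 308 and 242 CPM in CKD replicates 1 to 4, against 19.9, 14, 13.1 and 16.3 CPM in control replicates 1 to 4. Fgg was at 232, 208, 331 and 279 CPM in CKD libraries, against 8.56, 5.9, 5.75 and 7.7 CPM in control libraries. Fgb was the lowest of the 3 in CPM, at 34.7, 28.5, 47.9 and 41.4 CPM in CKD libraries, against 1.86, 0.967, 0.684 and 0.637 CPM in control libraries. For each chain every CKD library lay above every control library. How many of all genes separated in this way was not counted, here or in the comparisons below. The control values of Fgb rest on 32, 19, 10 and 11 reads in replicates 1 to 4, and those of Fga on 191 to 342 reads, so counting error alone is large for Fgb there.

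On the log2 scale Fga was 3.94 ± 0.32 higher in CKD than in control libraries (SE, edgeR), a 15.3-fold difference. Fgb was 5.18 ± 0.53 higher, or 36.3-fold, and Fgg 5.23 ± 0.43 higher, or 37.6-fold. Of the 17841 genes tested, 67.4% were called in this comparison (adjusted p below 0.05). By size, 387 of the tested genes had a larger log2 difference than Fga, 156 a larger one than Fgb and 151 a larger one than Fgg. By mean level, Fga and Fgg stood behind 338 and 300 of the 40213 listed genes in CKD libraries, against 8155 and 10548 in control libraries. The sizes depend on scaling: with library totals in place of TMM (trimmed mean of M-values) factors, the log2 differences were 4.95 for Fga, 6.2 for Fgb and 6.24 for Fgg, and the median of all genes moved to 1.05, against 0.0379 with TMM.

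**Figure D1:**
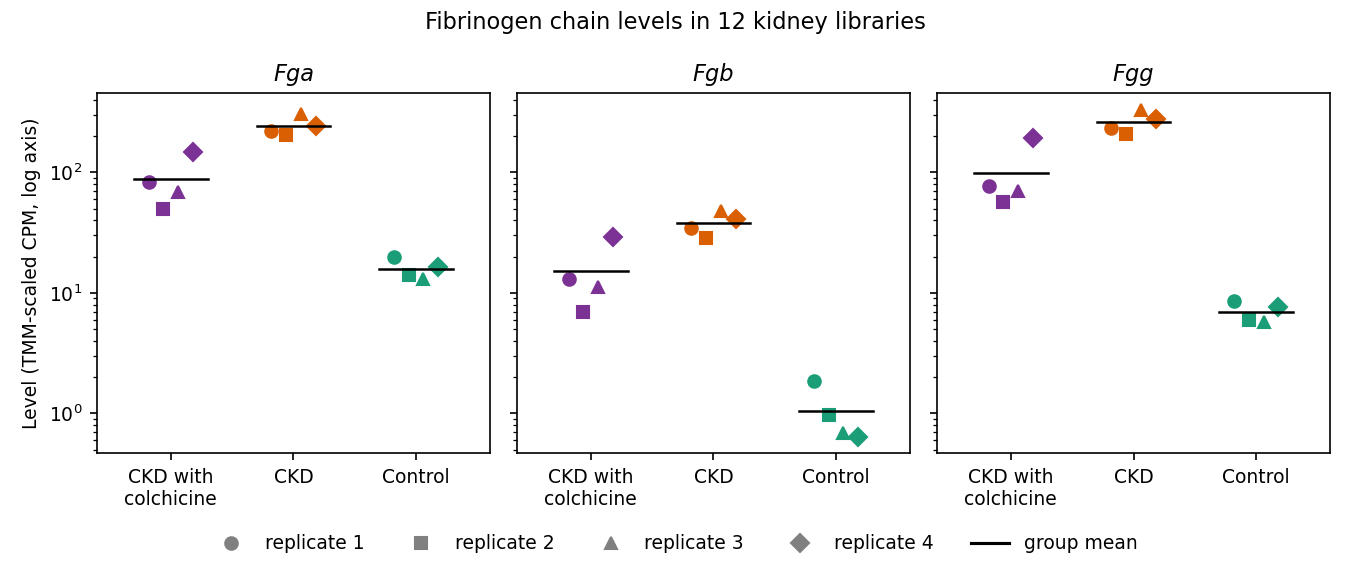
Level of each fibrinogen chain in TMM-scaled CPM (y axis, log scale) in CKD with colchicine, CKD and control libraries (x axis). Each point is 1 library, its shape gives the replicate number, and lines are group means; colchicine replicate 4 is the highest of its group for all 3 chains (147, 29.2 and 193 CPM for Fga, Fgb and Fgg).

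In kidneys of mice given colchicine with adenine, Fga was at 83.4, 50.2, 69.1 and 147 CPM in replicates 1 to 4. Its mean was 87.4 ± 41.9 CPM in colchicine libraries and 243 ± 46.5 CPM in CKD libraries (SD, n = 4 each), with no overlap. Fgg was at 77.4, 56.9, 69.7 and 193 CPM, a mean of 99.4 ± 63.3 CPM in colchicine libraries and 263 ± 54.7 CPM in CKD libraries, again with no overlap. Fgb was at 13, 6.99, 11.2 and 29.2 CPM, a mean of 15.1 ± 9.76 CPM in colchicine libraries and 38.1 ± 8.39 CPM in CKD libraries. Here the groups overlapped, because colchicine replicate 4 at 29.2 CPM lay just above CKD replicate 2 at 28.5 CPM.

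The log2 difference, colchicine minus CKD, was -1.48 ± 0.28 for Fga, -1.35 ± 0.38 for Fgb and -1.40 ± 0.35 for Fgg (SE, edgeR). As ratios, levels were 2.79, 2.56 and 2.65 times lower for Fga, Fgb and Fgg. In this comparison 15.0% of all tested genes were called. By size, 63, 88 and 79 genes had a lower log2 difference than Fga, Fgb and Fgg. The 2 comparisons share the CKD libraries, so a high CKD value enters both. Leaving out colchicine replicate 4 gave -1.86, -1.89 and -1.96 for Fga, Fgb and Fgg, and leaving out colchicine replicate 2 gave -1.29, -1.11 and -1.21. Where a slope on the labelled adenine percentage was fitted and read at 2%, Fga was at -1.95, Fgb at -2.06 and Fgg at -2.15. The colchicine library labelled 2%, replicate 1, lay at 83.4, 13 and 77.4 CPM for Fga, Fgb and Fgg, below every CKD library. With that library as the only colchicine library, the log2 differences were -1.55, -1.56 and -1.77.

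Against controls, the chains remained higher in colchicine kidneys, by 2.46 ± 0.31 on the log2 scale for Fga (5.51-fold), 3.83 ± 0.54 for Fgb (14.2-fold) and 3.83 ± 0.41 for Fgg (14.2-fold). Every colchicine library lay above every control library for each chain. In this comparison 70.5% of all tested genes were called. In bulk tissue, fewer cells that express a gene and less RNA of it per cell cannot be told apart.

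The 3 chains shared their order of libraries within each adenine-fed group. In colchicine libraries the order from low to high was replicate 2, 3, 1 and 4 for all 3 chains, and in CKD libraries it was 2, 1, 4 and 3 for all 3. These orders were not particular to the chains. The summed proximal tubule markers had both, at 663, 432, 506 and 791 CPM in colchicine replicates 1 to 4. In CKD replicates 1 to 4 that sum was 782, 767, 1030 and 877 CPM. In control libraries Fga and Fgg had the order 3, 2, 4 and 1, while Fgb had 4, 3, 2 and 1. The coefficient of variation was 48% for Fga, 64.6% for Fgb and 63.7% for Fgg in colchicine libraries, 19.1, 22 and 20.8% in CKD libraries and 19.3, 54.9 and 19.8% in control libraries. The spread of Fgb was thus wide in control libraries too, where its counts were few.

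The make-up of the fibrinogen message differed between control and adenine-fed kidneys. Fga held 44.4 ± 3.54% of the counts of the 3 chains in colchicine libraries, 44.8 ± 1.29% in CKD libraries and 66.5 ± 0.688% in control libraries (SD, n = 4 each). Fgg held 48.3 ± 3.48, 48.2 ± 0.973 and 29.3 ± 1.4% in the same order of groups, and Fgb 7.24 ± 0.771, 6.99 ± 0.363 and 4.22 ± 1.53%. The Fga share was 39.7 to 48% over colchicine libraries, 43.1 to 46.2% over CKD libraries and 65.6 to 67.1% over control libraries, so the controls stood apart while colchicine and CKD libraries overlapped. The ratio of Fga to Fgg counts was 0.927 ± 0.138 in colchicine libraries, 0.929 ± 0.0449 in CKD libraries and 2.27 ± 0.109 in control libraries. A share within a library does not depend on the scaling between libraries.

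Divided by coding length (1671, 1443 and 1308 bases for Fga, Fgb and Fgg), the chains were at 52.3 ± 25.1, 10.5 ± 6.75 and 75.9 ± 48.2 CPM per kb in colchicine libraries. In CKD libraries they were at 145 ± 27.6, 26.4 ± 5.81 and 201 ± 41.6 CPM per kb, and in control libraries at 9.47 ± 1.81, 0.719 ± 0.393 and 5.33 ± 1.05 CPM per kb. On this scale Fgg was the most abundant chain in both adenine groups and Fga in controls, with Fgb lowest throughout. The shortest annotated coding length of each gene was used, and longer forms have 2367 bases for Fga and 1329 for Fgg. Untranslated regions were left out of these lengths, and levels of different genes also depend on how reads were assigned to transcripts, and these levels say nothing of protein.

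**Figure D2:**
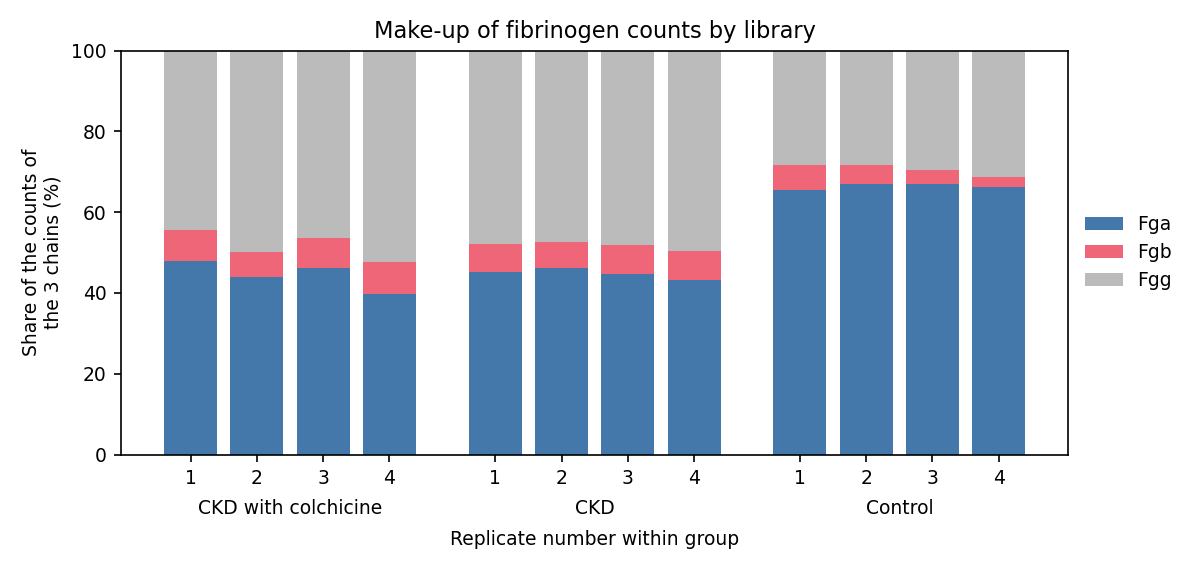
Share of Fga, Fgb and Fgg in the summed counts of the 3 chains (y axis, %) for each library (x axis, by replicate number within group). The 4 control libraries hold 65.6 to 67.1% Fga, against 43.1 to 46.2% in CKD libraries and 39.7 to 48% in colchicine libraries.

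The nearest gene on each side of the 3 had other values. Plrg1, a splicing factor gene next to Fgb, was at 25.6 ± 3.19 CPM in colchicine libraries, 26.9 ± 1.7 CPM in CKD libraries and 26.4 ± 0.279 CPM in control libraries, and its log2 difference between CKD and control libraries was 0.03 (adjusted p = 0.8, edgeR). Lrat, which makes retinyl esters and lies on the Fgg side, fell by 2.25 on the log2 scale in CKD libraries (adjusted p = 7.26e-05), to 0.605 ± 0.233 CPM against 2.88 ± 0.691 CPM in control libraries.

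Of the other genes of clot formation and removal, 52 were listed in 5 groups by role and 47 were tested. In CKD against control, 29 were higher, 15 lower and 3 not called, or 93.6% called beside 67.4% of all genes. By direction, 34.1% of all genes were called higher and 33.4% lower, the background for the CKD counts of each group below. In colchicine against CKD, 6 were higher and 6 lower, or 25.5% called beside 15.0% of all genes. With library totals as the scaling, the split in CKD against control was 36 higher and 9 lower.

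Of 13 clotting factor genes tested, 6 were higher and 7 lower in CKD. F10, which encodes factor X, was at 10.9 ± 1.81 CPM in CKD libraries and 0.242 ± 0.142 CPM in control libraries, a log2 difference of 5.43 ± 0.26 (adjusted p = 8.47e-11, edgeR). F7, the protease that acts with tissue factor, had 446 reads over the CKD libraries and 2 over the control libraries, a depth-adjusted ratio of 123 with an exact 95% interval of 33.9 to 1020. Both of those control reads were in replicate 1, and its log2 difference was 9.79 without that library and 6.34 without control replicate 2. Tissue factor itself, F3, was higher by 0.96 ± 0.22 (adjusted p = 0.00176). The subunits of factor XIII differed in direction: F13a1, the crosslinking enzyme, was higher by 4.27 ± 0.47, and F13b, its carrier subunit, was at -4.22 ± 0.33, with 7.95 ± 1.88 CPM in CKD libraries and 148 ± 24.1 CPM in control libraries. F8, the factor VIII cofactor, was at -0.44 ± 0.11 (adjusted p = 0.00329), which turned to 0.57 with library totals. F2, the gene for the thrombin precursor, was not tested, at 0.11 ± 0.115, 0.0841 ± 0.0577 and 0.581 ± 0.188 CPM in colchicine, CKD and control libraries.

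Of 9 anticoagulant genes tested, 6 were higher and 2 lower in CKD. Serpina10, the inhibitor that acts with protein Z on factor X, was at 41.4 ± 1.91 CPM in CKD libraries and 0.382 ± 0.187 CPM in control libraries, a log2 difference of 6.75 ± 0.21 (adjusted p = 1.84e-12). Pros1, protein S, was higher by 2.44 ± 0.11 and Thbd, thrombomodulin, by 1.53 ± 0.10. Proc, protein C, was at -3.57 ± 0.11, with 12 ± 0.491 CPM in CKD libraries and 142 ± 9.86 CPM in control libraries.

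Fibrin removal showed both directions. Among 7 activator genes, 4 were higher and 2 lower in CKD. Plat, tissue plasminogen activator, was higher by 0.90 ± 0.10, Plaur, the urokinase receptor, by 1.82 ± 0.18, and Anxa2, a plasminogen-binding annexin, by 1.72 ± 0.07, all past the test. Plau, urokinase, was at -0.67 ± 0.12 with TMM and 0.343 with library totals. Plg, the plasmin precursor, was low everywhere, at 0.151 ± 0.127, 0.107 ± 0.0775 and 0.869 ± 0.133 CPM in colchicine, CKD and control libraries. Among 7 inhibitor genes, 4 were higher and 3 lower: Serpine2, which inhibits thrombin and plasminogen activators, was at 339 ± 8.73 CPM in CKD libraries and 30.4 ± 3.57 CPM in control libraries, higher by 3.48 ± 0.10. Serpinf2, α2-antiplasmin, was at -4.53 ± 0.31 and Pzp, a broad protease inhibitor, at -8.70 ± 0.24.

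Of 11 genes for receptors that bind fibrinogen or fibrin, 9 were higher and 1 lower in CKD. Itgam and Itgb2, which form the leukocyte receptor Mac-1, were higher by 5.73 ± 0.26 and 4.27 ± 0.10 on the log2 scale. Icam1, an adhesion molecule of endothelium and epithelium, was higher by 2.33 ± 0.08. Itga2b, the platelet fibrinogen receptor subunit, was the lower one, at 1.01 ± 0.184 CPM in CKD libraries and 4.4 ± 0.58 CPM in control libraries.

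In colchicine against CKD, 5 of the 12 pathway calls stood in each of the 12 fits that left out 1 library. S100a10, the partner of Anxa2 in plasminogen binding, was higher by 0.64 ± 0.09 (adjusted p = 0.00098), at 222 ± 23.9 CPM in colchicine libraries and 143 ± 6.38 CPM in CKD libraries. Anxa2 was higher by 0.47 ± 0.07, Itga5, a fibronectin receptor subunit, by 0.32 ± 0.06 and Itga2b by 1.05 ± 0.20, while Itgb2 was at -0.37 ± 0.08. F8, Kng2, Vkorc1, Serpina10, Itgax, Itgav and Itgb3 lost the call in 1, 8, 8, 3, 8, 5 and 6 of those fits, in the order named, with adjusted p values up to 0.0511 for F8, 0.132 for Kng2 and Vkorc1 (these 3 without CKD replicate 3), 0.0593 for Serpina10, 0.0723 for Itgav and 0.137 for Itgb3 (these 3 without colchicine replicate 2), and 0.101 for Itgax (without CKD replicate 2). The number of pathway calls was 7 without CKD replicate 1, 5 without CKD replicate 3, 6 without colchicine replicate 2 and 7 without colchicine replicate 3. Of all genes, 7.83, 5.47, 6.63 and 7.72% were called in those fits. Without colchicine replicate 1 there were 16 pathway calls, and 35.3% of all genes were called, so the background share moved with the library left out.

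**Figure D3:**
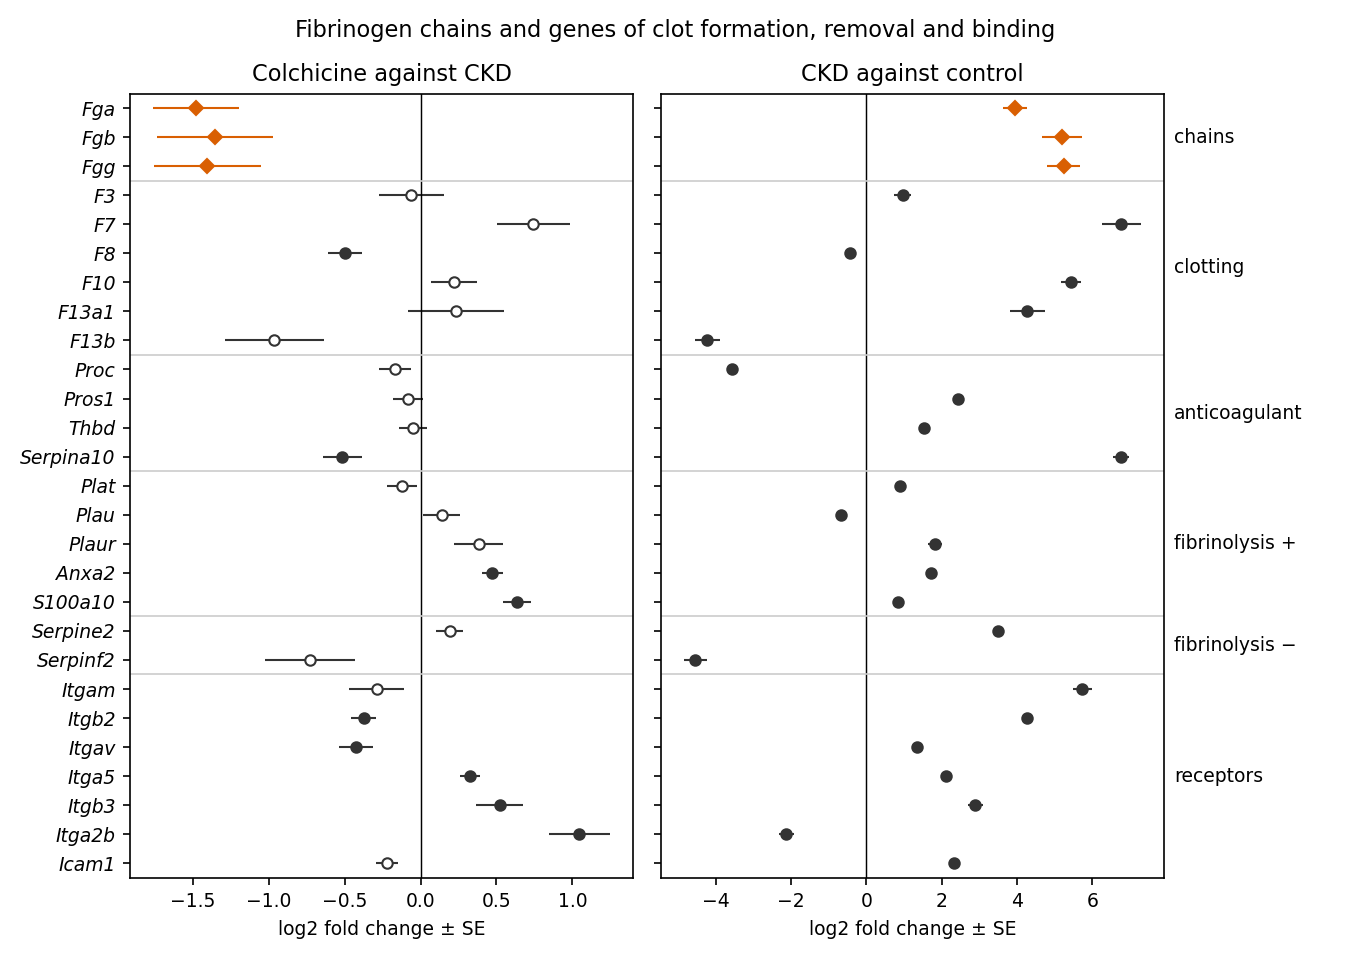
Log2 fold change with its SE (x axes) of the 3 chains (orange diamonds) and of genes of clot formation, removal and binding (circles, filled where the adjusted p was below 0.05), for colchicine against CKD on the left and CKD against control on the right; the axes differ in scale. The chains lie between -1.48 and -1.35 on the left, and the other genes plotted there between -0.96 (F13b) and 1.05 (Itga2b).

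Genes for other proteins with a fibrinogen-like domain were split. Of 11 tested, 5 were higher and 5 lower in CKD, or 90.9% called beside 67.4% of all genes, and 2 were higher and 2 lower with colchicine, or 36.4% beside 15.0%. Fgl2, a membrane prothrombinase, was higher by 2.91 ± 0.19 in CKD, and Mfap4, a microfibril protein, by 2.33 ± 0.15. Fgl2 was at -0.56 ± 0.16 in colchicine against CKD (adjusted p = 0.0334), a call lost in 7 of the 12 fits that left out 1 library (up to 0.101, without colchicine replicate 2). Tnxb, a tenascin of the matrix, was higher by 1.40 ± 0.18 with colchicine, at 21.4 ± 6.75 CPM in colchicine libraries and 8.09 ± 0.596 CPM in CKD libraries. Fgl1, the hepatocyte relative of fibrinogen, was at 1.35 ± 0.371, 1.41 ± 0.282 and 2.18 ± 0.563 CPM in colchicine, CKD and control libraries, unlike the chains. Its log2 difference in CKD, -0.62 ± 0.26, was called at an adjusted p of 0.0471, was lost in 7 of the 12 fits that left out 1 library (up to 0.17, without control replicate 1) and turned to 0.395 with library totals.

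The regulators that act on the fibrinogen genes in liver were called in both directions. Of 21 genes of interleukin-6 signalling and hepatic transcription factors, 15 were higher and 6 lower in CKD, where 67.4% of all genes were called. Il6 had 303 reads over the CKD libraries and 2 over the control libraries, a ratio of 83.6 with an exact 95% interval of 23 to 694. Stat3, the signal transducer, was higher by 1.82 ± 0.10, Socs3, its feedback inhibitor, by 5.09 ± 0.21, Osmr, the oncostatin M receptor, by 3.40 ± 0.19, and Cebpb by 1.28 ± 0.12. Hnf4a, a transcription factor of hepatocytes and proximal tubule cells, was at -1.98 ± 0.15.

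With colchicine, 4 of these 21 were lower than in CKD, or 19% called beside 15.0% of all genes, a share near the background. Hnf4a was at 63 ± 16.7 CPM in colchicine libraries and 118 ± 9.06 CPM in CKD libraries, a log2 difference of -0.90 ± 0.15 (adjusted p = 0.00289). Jak2, a kinase of the receptor, was at -0.42 ± 0.11 (adjusted p = 0.0226), a call lost in 5 of the 12 fits that left out 1 library (up to 0.0761, without colchicine replicate 2). Il6 was at 2.74 ± 1.31 CPM in colchicine libraries and 2.41 ± 0.774 CPM in CKD libraries, Socs3 at 78.3 ± 16.6 and 68.1 ± 9.8 CPM, and Stat3 at 120 ± 16.1 and 126 ± 9.92 CPM. These last 3 did not pass the test (adjusted p = 0.746, 0.38 and 0.65), while the chains were 2.56 to 2.79 times lower; the difference between their responses and those of the chains was not tested.

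Other acute phase genes were mostly higher in CKD, 13 of 15 tested, with 1 lower, or 93.3% called beside 67.4% of all genes. Cp, ceruloplasmin, was higher by 3.97 ± 0.10, C3, the complement component, by 6.17 ± 0.18, and Lcn2, a siderophore-binding injury marker, by 7.18 ± 0.22. Colchicine against CKD gave 1 higher and 3 lower, or 26.7% called beside 15.0% of all genes. Saa3, a serum amyloid, was higher by 1.77 ± 0.26, at 4.6 ± 1.52 CPM in colchicine libraries and 1.34 ± 0.114 CPM in CKD libraries, and C3 was at -0.74 ± 0.15, with 824 ± 172 CPM in colchicine libraries and 1379 ± 62.8 CPM in CKD libraries. The list summed to 2770 ± 242, 3250 ± 133 and 101 ± 9.32 CPM in colchicine, CKD and control libraries, and the 3 chains to 202 ± 114, 544 ± 109 and 23.8 ± 4.86 CPM.

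Hepatocyte markers were at their highest sum in control libraries, where the chains were lowest. Of 9 tested, 6 were lower in CKD and the other 3 were not called, and 3 were lower with colchicine (Ttr, Alb and Apob). These counts are 66.7% called in CKD against control, near the 67.4% of all genes, and 33.3% with colchicine beside 15.0%. With colchicine, the call of Alb was lost in 8 of the 12 fits that left out 1 library (adjusted p up to 0.157, without CKD replicate 3) and that of Apob in 2 of them (up to 0.0644, without colchicine replicate 3). Alb, the albumin gene, was at 0.655 ± 0.109, 1.27 ± 0.441 and 7.96 ± 2.55 CPM in colchicine, CKD and control libraries. Of the 14 listed, Ahsg, Cps1, Tat, Tdo2 and Mup20 did not reach the count minimum, with group means at or below 0.227 CPM. The list summed to 61.3 to 108 CPM in colchicine libraries, 187 to 213 CPM in CKD libraries and 493 to 784 CPM in control libraries, most of it from Ttr and Apob, which kidney also expresses. Ttr, the thyroxine carrier, was at 59.7 ± 13.8, 153 ± 11.3 and 415 ± 119 CPM.

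Of 10 listed markers of platelets, which carry fibrinogen protein, 5 were tested and the rest did not reach the count minimum. Those tested were low but higher in CKD for 4 of 5 genes, with Itga2b the lower one, beside 67.4% of all genes called. Pf4, the platelet factor 4 gene, was at 17.2 ± 7.05, 12.4 ± 1.3 and 0.754 ± 0.294 CPM in colchicine, CKD and control libraries. Pf4 made up most of the mean sum of the list in colchicine and CKD libraries (24.2 and 16.2 CPM). In control libraries Itga2b, at 4.4 CPM, made up most of it (6.17 CPM). The list summed to 17.4 to 38.3 CPM in colchicine libraries, 14.2 to 17.5 CPM in CKD libraries and 5.18 to 7.01 CPM in control libraries. Erythrocyte markers summed to 15.7 to 41.1, 34.7 to 99.5 and 212 to 581 CPM in the same groups. Macrophage markers were higher in CKD for 10 of 10 genes and lower with colchicine for 5 of 10, where 67.4% and 15.0% of all genes were called in either direction, with sums of 1300 to 1900, 1920 to 1990 and 106 to 128 CPM in colchicine, CKD and control libraries. Csf1r, the macrophage growth factor receptor, was at 99.1 ± 15.9 CPM in colchicine libraries and 141 ± 5.35 CPM in CKD libraries (log2 difference -0.51 ± 0.09, adjusted p = 0.00486).

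Injured tubule markers moved with the chains in CKD, with 11 of 11 higher. They summed to 10800 to 19300 CPM in colchicine libraries, 18600 to 21500 CPM in CKD libraries and 954 to 1030 CPM in control libraries. Most of each mean sum (14800, 19500 and 996 CPM) was Spp1, at 10010, 15050 and 610 CPM in the same order of groups. Havcr1, the kidney injury molecule, was at 126 ± 87, 188 ± 20.7 and 1.57 ± 0.289 CPM in those groups. Colchicine against CKD gave 2 higher and 2 lower of the 11, Krt18, a keratin, being higher by 0.78 ± 0.11. The median log2 difference of the 11 in that comparison was 0.0139. Proximal tubule markers were lower in CKD for 8 of 8 genes and lower with colchicine for 3 of 8 (37.5% called). Over all genes 67.4% were called in CKD against control and 15.0% in colchicine against CKD. The part that these cell types have in the chain levels was not tested.

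**Figure D4:**
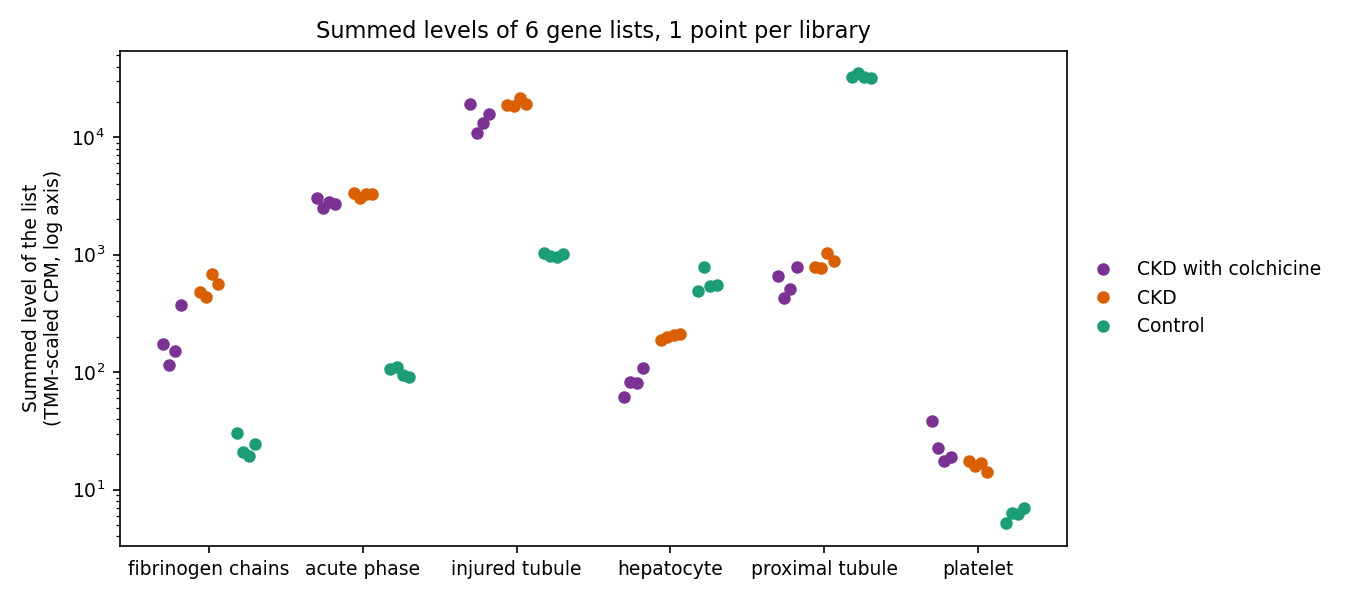
Summed TMM-scaled CPM (y axis, log scale) of the fibrinogen chains and of 5 marker lists (x axis) in CKD with colchicine, CKD and control libraries, 1 point per library. The chains, acute phase and injured tubule sums are lowest in controls (19.5 to 30.3 CPM for the chains), while hepatocyte and proximal tubule sums are highest there. Spp1 makes up most of the injured tubule sum, and Pf4 most of the platelet sum in adenine-fed libraries.

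The genes most like each chain were found by the root mean square difference of mean-centred log2 CPM, over 14025 genes with a mean count of 50 or more. Over all 12 libraries, Fgb and Fgg differed from each other by 0.299, and Fga from Fgb by 0.675 and from Fgg by 0.62, so Fga was the chain apart. The 4 nearest genes to Fga were Cfi (0.426), Gpr65 (0.5), Gc (0.502) and Cxcl13 (0.522). Those nearest to Fgb were Ugt1a2 (0.437), Spp1 (0.584), Clec4a3 (0.659) and Ms4a14 (0.662), and those nearest to Fgg were Ugt1a2 (0.486), Spp1 (0.513), Clec4a3 (0.56) and Vcam1 (0.604). Gc, the vitamin D-binding protein, was at 51.6 ± 16.9, 165 ± 13.1 and 19.3 ± 1.53 CPM in colchicine, CKD and control libraries. Spp1, osteopontin, was at 10010 ± 2520, 15050 ± 1289 and 610 ± 46 CPM. The measure is led by the step between control and adenine-fed kidneys.

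Within the 8 adenine-fed libraries the neighbours were other genes, and the same 4 for each chain: Slc16a4, Nat8f5, Apob and Ces2c. Their distances were 0.126 to 0.158 from Fga, 0.133 to 0.194 from Fgb and 0.117 to 0.197 from Fgg, while the chains differed from each other by 0.127 to 0.151. In level against controls these 4 went the other way from the chains. The summed proximal tubule markers had the same order of groups as these 4. That sum was 598 ± 161, 864 ± 120 and 33200 ± 1300 CPM in colchicine, CKD and control libraries. Whether the 4 genes follow the proximal tubule markers was not tested. Ces2c, a carboxylesterase, was at 8.06 ± 5.29, 22 ± 2.8 and 325 ± 15.9 CPM in colchicine, CKD and control libraries. Apob, apolipoprotein B, was at 15.9 ± 9.08, 41.8 ± 5.69 and 158 ± 25.2 CPM, and Slc16a4, a monocarboxylate transporter family member, at 4.51 ± 2.55, 11.7 ± 1.49 and 115 ± 9.72 CPM. Nat8f5 was at 1.46 ± 0.692, 4 ± 0.555 and 33.5 ± 8.72 CPM. These libraries fall into 2 groups, and likeness in this measure includes the difference between them.

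**Figure D5:**
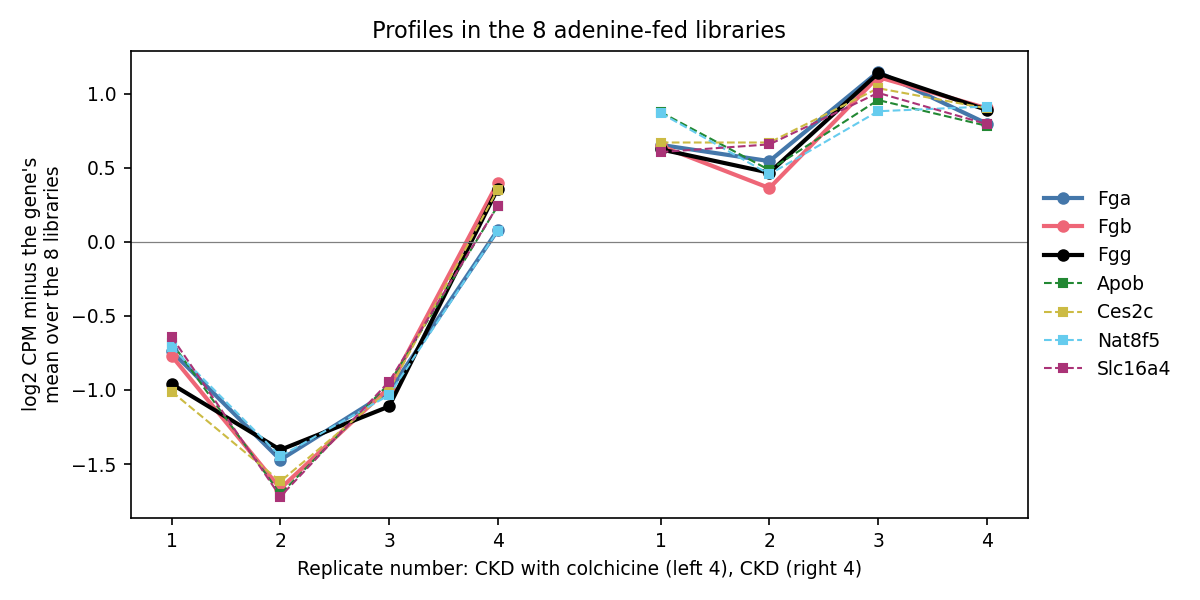
Log2 CPM of each gene minus its mean over the 8 adenine-fed libraries (y axis) in CKD with colchicine (left) and CKD (right) libraries (x axis, replicate number), for the 3 chains (solid) and their 4 nearest genes (dashed). Lines join the values of 1 gene within a group and show no order of replicates; all 7 genes are lowest in colchicine replicate 2, and colchicine replicate 4 lies nearest to the CKD libraries.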

How the data were processed

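Bulk RNA-seq of kidney was measured in 12 libraries, grouped by sample title. Per the labels' protocols, RNAiso Plus was the extraction reagent and CORALL RNA-seq V2 the library kit. The submitters' processing notes name fastp, STAR, Salmon and GRCm39; no version, annotation or counting option is known here. The values the authors deposited are whole numbers per gene, taken here as estimated counts (expected counts) that were already rounded; all 28 values of 1000000 or more were multiples of 10. Use of molecular identifiers is not stated, and intervals cover counting error only.

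Genes were kept by filterByExpr (minimum count 10), scaled by TMM and fitted over the 12 libraries with 3 group means in edgeR 4.0.16 (R 4.3.3), by a robust two-sided quasi-likelihood F test with Benjamini-Hochberg adjustment over 17841 genes. The threshold for a call was an adjusted p below 0.05. CPM are TMM-scaled counts per 1000000, with SD over 4 libraries; log2 fold changes are given with the standard error of the fit. Ratios against groups with 1 to 3 reads have 95% exact binomial intervals. Promoter windows and symbols are from RefSeq tables (GRCm38.p6), with 3 of 3 chains matched; coding lengths are from the GENCODE annotation of GRCm38. For ranking neighbours, 2 counts were added as a prior before taking log2 CPM. The model was also run on simulated counts with far fewer genes changed than were called here against controls. That run cannot test the scaling against controls. Figures were drawn with matplotlib 3.10.9.

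The 3 chains and the gene lists were chosen with earlier results of these data known. The genes named are the chains, the leading 2 of each list by p in CKD against control and in colchicine against CKD, of which the text gives examples, and a set reported whatever its result. A few genes of that set are not reported here. Names outside this rule were chosen after their values were seen. Alternatives comprised DESeq2 1.42.0, limma-voom (limma 3.58.1), other scalings and count filters, mitochondrially encoded genes left out, the labelled adenine percentage, the replicate number as a block, only the 8 libraries compared, and each library left out.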

Additional observations from a re-analysis of the deposited data

Results flagged for a closer look

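Within groups of 4 libraries, the named genes were searched for a library far from the other 3 (Dixon's ratio above 0.829). Of 209 checks, which included the chain shares and left out gene and group pairs at very low levels, 19 were flagged, where chance gives about 5% of groups. Among the chains, only Fgg in colchicine libraries was found, where replicate 4 had 193 CPM and the others 56.9 to 77.4 CPM; Fga and Fgb were also highest in that library, at 147 and 29.2 CPM. Colchicine replicate 1 stood apart for F3 (93.2 CPM, others 45.9 to 51.9), Vkorc1 (22.3 CPM, others 28.5 to 29.4), Itgam (98.7 CPM, others 49.5 to 54.9), Fgl1 (1.9 CPM, others 1.11 to 1.2), Fgl2 (31.4 CPM, others 21 to 22.1), Osmr (144 CPM, others 95 to 101) and Jak2 (73.1 CPM, others 49.9 to 52.1). Control replicate 1 stood apart for Pros1 (30.2 CPM, others 22.4 to 23.7) and Lcn2 (7.92 CPM, others 3.9 to 4.53). CKD replicate 4 stood apart for Osmr (111 CPM, others 123 to 124) and Plrg1 (29.4 CPM, others 25.7 to 26.3). Control replicate 2 stood apart for C3 (25 CPM, others 16.5 to 17.9) and Cfi (4.28 CPM, others 4.75 to 4.83). CKD replicate 3 stood apart for Ugt1a2 (62.6 CPM, others 21.4 to 26.8) and Spp1 (17000 CPM, others 14300 to 14600). Colchicine replicate 4 stood apart for F8 (8.41 CPM, others 6.68 to 6.95). CKD replicate 1 stood apart for F13a1 (19 CPM, others 11 to 11.8). CKD replicate 2 stood apart for Nat8f5 (3.17 CPM, others 4.22 to 4.35). Colchicine replicate 1 is also the library without which the largest number of genes was called in colchicine against CKD, 6401 against 2682 with it.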

How the results depend on the processing

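The log2 differences of the 3 chains kept their direction in every alternative run. With library totals only, they were 4.95, 6.2 and 6.24 (Fga, Fgb, Fgg) in CKD against control and 3.48, 4.85 and 4.84 in colchicine against control, where the median of all genes moved to 1.05 and 1.14, against 0.0379 and 0.101 with TMM. Calls split then into 13195 higher and 1852 lower in CKD against control and 13754 and 1953 in colchicine against control, against 6075 and 5952, and 6612 and 5964, with TMM. Upper-quartile scaling gave 1764 higher and 1185 lower in colchicine against CKD and 8134 and 4849 in colchicine against control. With a slope on labelled adenine read at 2%, Fga, Fgb and Fgg were at -1.95, -2.06 and -2.15 in colchicine against CKD and at 1.99, 3.12 and 3.08 in colchicine against control. With the colchicine library labelled 2% only, the chains were at -1.55, -1.56 and -1.77 in colchicine against CKD and at 2.43, 3.67 and 3.51 in colchicine against control.

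Genes called in colchicine against CKD numbered 2682, with 1008 under that slope, 1181 with the colchicine library labelled 2% only (its lone library assumed to vary like the others; 7 pathway genes called) and 3805 with DESeq2. Leaving out 1 library gave 992 to 6401 calls and 5 to 16 pathway calls in that comparison, the extremes of the first without CKD replicate 3 and colchicine replicate 1; it also gave 1426, 1560 and 1518 without CKD replicates 1, 2 and 4, and 1196 and 1385 without colchicine replicates 2 and 3. With the replicate number as a block there were 1756 calls (9 in the pathway) and the chains were at -1.56, -1.49 and -1.54; the numbers share no stated source, 1 of 12 same-number pairs had a correlation over 0.1, and 2 of 12 libraries correlated best with their own number. For the chains, leaving out 1 library gave 3.8 to 4.07, 5.01 to 5.62 and 5.1 to 5.34 in CKD against control, -1.86 to -1.29, -1.89 to -1.11 and -1.96 to -1.21 in colchicine against CKD, and 2.05 to 2.65, 3.26 to 4.26 and 3.24 to 4.02 in colchicine against control.

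Of 4608 values of the 66 named genes under alternatives, 152 lost the call, 45 gained it and 12 turned in sign, all 12 with library totals: F8 0.57, Kng2 0.207, Vkorc1 0.142, Plau 0.343, Fgl1 0.395 and Tnxb 0.469 in CKD against control, and F8 0.0923, Kng2 0.00759, Vkorc1 0.499, Plau 0.509, Fgl1 0.35 and Plrg1 0.988 in colchicine against control. The cause was not tested. Depth limits Fgb in control libraries, with 10 to 32 reads each.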
